A study of Ovis aries with 16 samples.

Results

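Human miRNA names of 2 primate-restricted groups, the miR-548 family and the chromosome 19 cluster, were followed through counts of sheep serum and of extracellular vesicles (EVs, membrane-bound particles shed by cells) purified from serum. Members were taken by name alone, as rows numbered miR-548 for the family, and miR-498, miR-512, miR-515 to miR-527, miR-1283 or miR-1323 for the cluster, with either arm and any letter. This gave 9 rows of the family and 9 of the cluster, 18 of 1075 miRNA names and of 1105 names in all. The samples came from adolescent sheep of normal 2-ventricle anatomy that underwent a Fontan operation in 1 stage, which leads systemic venous blood to the lungs without a pumping ventricle. Serum and EVs were each sequenced for 5 animals before surgery (letters A to E in the sample titles) and for 3 animals after it (D, on day 6, with E and F, on day 7), 16 libraries in 4 groups. The EVs were collected on a size-exclusion column. The samples before surgery are the study's controls, breed and sex are not given, and no group without the operation was followed over the same days.

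Mature miRNAs are short RNAs that guide silencing complexes to messenger RNAs through their seed, the bases near the 5′ end. The miR-548 family is a large human family that arose from copies of a short inverted-repeat transposon, MADE1, and its hairpins lie scattered over many human chromosomes. The chromosome 19 cluster is an imprinted array of related hairpins that human placenta expresses strongly and releases in vesicles, and many of its products carry seeds related to those of the miR-17 and miR-302 to miR-373 families. Both groups are known from primates alone. Their names in a table from sheep therefore serve as a check on how human names were put on sheep reads.

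The rows of the family were miR-548ac, miR-548ad-5p, miR-548ao-5p, a row shared by miR-548ap-5p and miR-548j-5p, miR-548ay-3p, miR-548ba, miR-548f-3p, miR-548w and miR-548y. Those of the cluster were miR-512-5p, miR-518a-3p, miR-518b, miR-518d-3p, miR-518e-3p, miR-519e-5p, miR-520h, miR-521 and miR-1283. No hairpin was represented by both of its arms. By number and letter, 103 of the 1075 miRNA names matched 1 of the 106 miRNA genes that the sheep assembly ARS-UI_Ramb_v3.0 has in the gene table used, and 0 of the 18 members did. That table holds few miRNA genes, so a name without a match there is not shown to be missing from sheep.

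Library totals ran from 65537 to 639207 counts. A list of 7 red blood cell names such as miR-486-5p and miR-451a took 20.9% to 66.8% of counts in serum and 15.8% to 56.5% in EVs, over all libraries of each. These ranges overlap, so they cannot check which libraries are serum and which are EVs. Counts of 0 were shared by sets of libraries, at a phi coefficient (a correlation of yes-or-no patterns) above 0.8. The first set was serum of animal B before surgery with that of E and F after it, and 524 of 1105 names were 0 in all 3. The second was 5 EV libraries, 3 from before surgery (A, B and E) and 2 from after it (E and F), and 292 names were 0 in all 5. Serum libraries of the pair A and E, and of the pair C and D, made 2 more sets before surgery. The 4 other libraries stood alone, and no set joined serum and EVs. A 0 is therefore given here as listed at 0, with no limit of detection, and no fold is taken against a group listed at 0 throughout.

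Both groups of names sat at low to middling counts in nearly every library in which they were listed. A listed member had a median of 28 counts in the family and 28.5 in the cluster, against 37 for all miRNA names, and the highest single values were 214 counts for miR-548f-3p and 295 for miR-512-5p. Averaged over the 4 groups with equal weight, the median member had 123 CPM (counts scaled to library totals of 1e+06) in the family and 177 CPM in the cluster. The median of all 1075 miRNA names was 159 CPM, that of 180 late-registry human names (miR-4251 to miR-4804) was 121 CPM and that of 154 names of short-intron type (miR-6715 to miR-6895) was 162 CPM. By contrast, the 40 listed names of a set of broadly conserved miRNAs had a median of 1677 CPM. The 103 names matching a sheep miRNA gene had a median of 221 CPM. The members thus lay among the bulk of the table. The 40 names of the conserved set lay about an order of magnitude above them, but the 103 did not. These are descriptions of lists and were not tested.

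**Figure D1:**
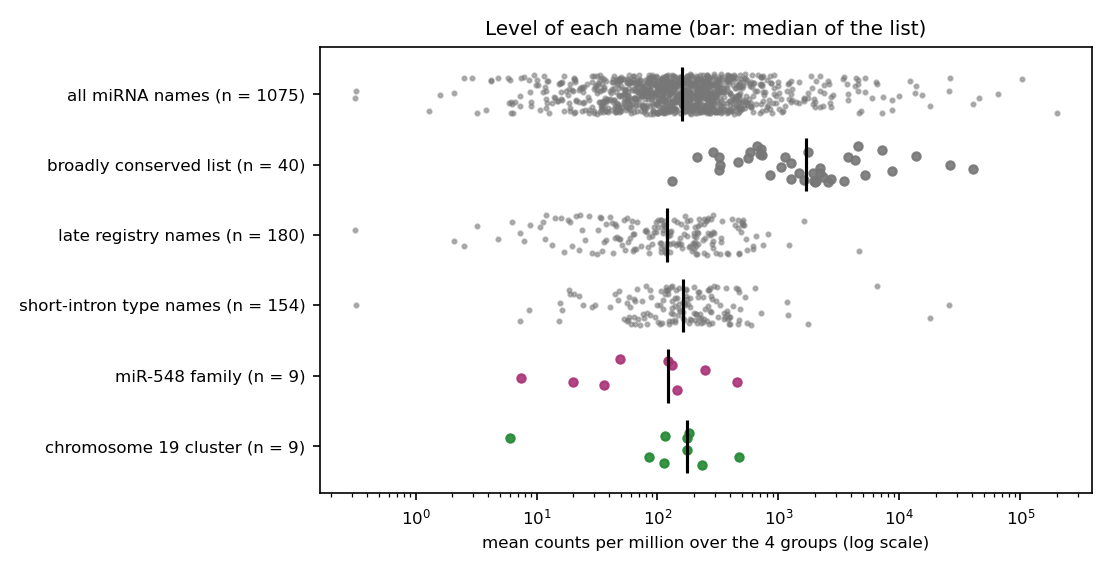
Mean level of each name in CPM of library totals (log axis), 1 point per name, for all miRNA names, 3 comparison lists and the 2 member groups, with a bar at each median. The medians are 159 CPM for all miRNA names, 1677 CPM for the broadly conserved list, 123 CPM for the miR-548 family and 177 CPM for the chromosome 19 cluster.

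Listing was patchy. Of the 144 counts of the family (9 names in 16 libraries), 71 were 0 (49.3%), and of the 144 of the cluster 44 were 0 (30.6%), against 27.6% for all miRNA names. Only miR-548f-3p in the family and only miR-518e-3p in the cluster were above 0 in all 16 libraries, 11.1% of each group. So were 33.7% of all miRNA names, 51.5% of the names matching a sheep miRNA gene and 95% of the broadly conserved list. In serum 59.7% of the counts of the family and 45.8% of those of the cluster were 0, and in EVs 38.9% and 15.3%. For all miRNA names the figures were 34.5% in serum and 20.7% in EVs.

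The sets of libraries were built from the zeros of all names, those of the members included. In the set of 3 serum libraries, 7 of 9 family names and 7 of 9 cluster names were 0 in all 3 libraries. In the set of 5 EV libraries, 3 family names and 1 cluster name were 0 in all 5. Over the 4 sets of more than 1 library, the 18 names gave 72 combinations of name and set, and in 68 of these the name was either 0 in every library of the set or above 0 in every one. The 4 others were the shared row of miR-548ap-5p and miR-548j-5p in the first serum set, and miR-548ba, miR-548ad-5p and miR-520h in the EV set. As the sets were made from these same zeros, such agreement was largely built in and is a description only. The same count over all names is not given here. The sets followed neither surgery nor animal alone.

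**Figure D2:**
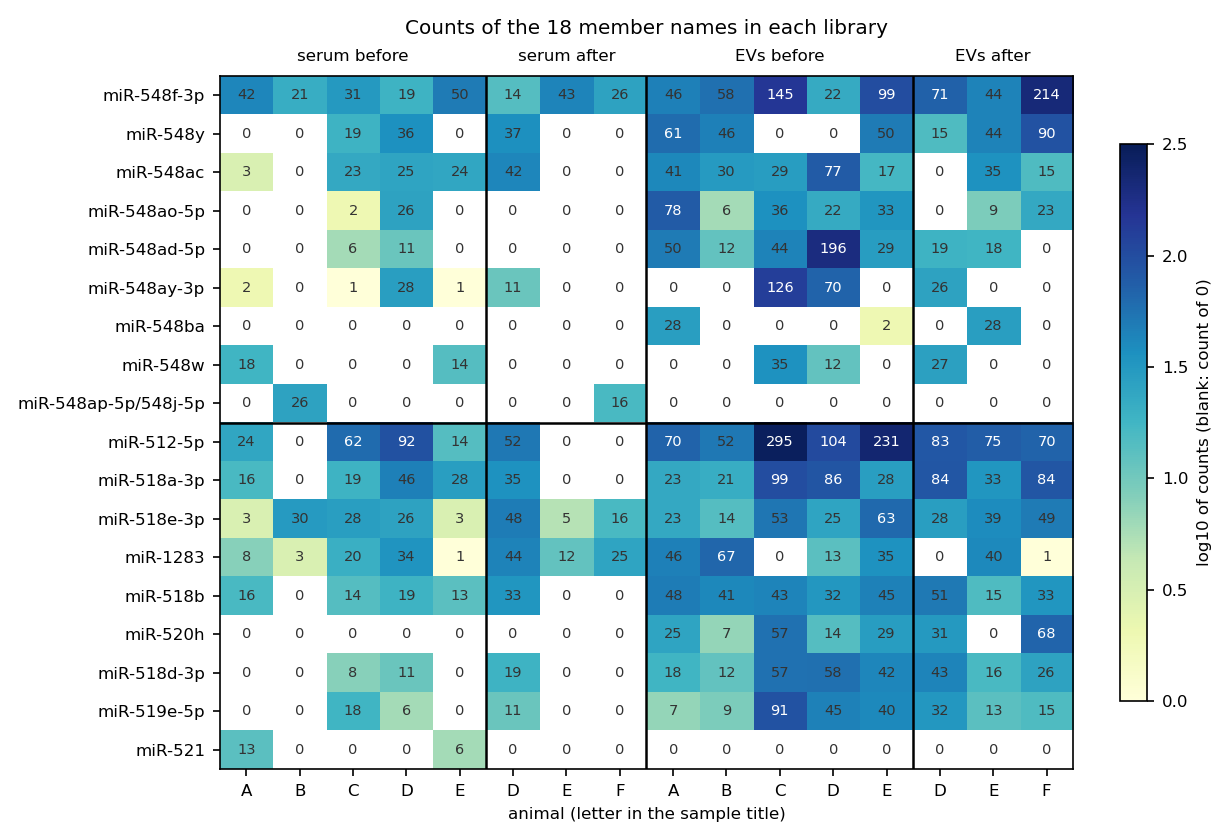
Counts of the 18 member names (rows) in each of the 16 libraries (columns, by group and animal), with colour on a log10 scale and blank cells at a count of 0. miR-548f-3p and miR-518e-3p are filled in every column, and miR-520h is blank in all 8 serum columns.

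The miR-548 family was led by miR-548f-3p, which held 33.8% of all counts of the family. Its counts were 42, 21, 31, 19 and 50 in serum of animals A to E before surgery and 14, 43 and 26 in serum of animals D to F after it. EVs held 46, 58, 145, 22 and 99 counts before and 71, 44 and 214 after surgery. The serum groups overlapped each other, as did the EV groups, and 3 EV libraries (46, 22 and 44 counts) lay within the serum values. By mean CPM the name ranked 169th of the 1075 miRNA names, at 457 CPM. Its level was 184 ± 131 CPM in serum before (SD, n = 5), 123 ± 110 in serum after (n = 3), 611 ± 444 in EVs before (n = 5) and 910 ± 1210 in EVs after surgery (n = 3), so the spread within the EV groups was of the size of their means.

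miR-548y, at 246 CPM the next of the family, was listed in 9 libraries. It had 19 and 36 counts in serum of C and D before surgery, 37 in serum of animal D after it, and 0 in the other 5 serum libraries. In EVs it had 61, 46 and 50 counts in A, B and E before surgery and 15, 44 and 90 in animals D to F after it, but was listed at 0 in animals C and D before surgery. miR-548ac, at 145 CPM, was above 0 in 12 libraries, with 3 to 42 counts where listed in serum and 15 to 77 where listed in EVs. Its zeros were the 3 serum libraries of the first set, together with EVs of animal D after surgery.

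miR-548ad-5p was listed in more EV than serum libraries, as were 39.9% of all names. It had 50, 12, 44, 196 and 29 counts in EVs of animals A to E before surgery and 19, 18 and 0 in animals D to F after it. In serum only animals C (6 counts) and D (11 counts) before surgery were above 0. Such a difference in listing cannot be told apart from a difference between the sets of shared zeros. miR-548ao-5p showed a like listing, with 78, 6, 36, 22 and 33 counts in EVs before and 0, 9 and 23 after surgery, and in serum only 2 and 26 counts in animals C and D before surgery. The serum values of animal D (26 counts) and the EV values overlapped for this name.

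The remaining family names were scarce. miR-548ay-3p had 126 and 70 counts in EVs of animals C and D before and 26 in EVs of animal D after surgery, with 0 in the other 5 EV libraries and 1 to 28 counts in 5 serum libraries. miR-548w had 35, 12 and 27 counts in the same 3 EV libraries as miR-548ay-3p and 18 and 14 in serum of A and E before surgery. miR-548ba was listed in EVs alone, with 28 counts in animal A and 2 in animal E before surgery and 28 in animal E after it. The shared row of miR-548ap-5p and miR-548j-5p was listed in serum alone, with 26 counts in animal B before and 16 in animal F after surgery. The EV libraries that held miR-548ay-3p and miR-548w were the 3 EV libraries that belonged to no set of shared zeros.

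In the chromosome 19 cluster, miR-512-5p held 31.6% of the counts and ranked 155th of the miRNA names, at 473 CPM. Serum had 24, 0, 62, 92 and 14 counts in animals A to E before surgery and 52, 0 and 0 in animals D to F after it. EVs had 70, 52, 295, 104 and 231 counts before and 83, 75 and 70 after surgery. All 8 EV libraries were above 0, whereas the 3 serum zeros were those of the first set of shared zeros. As CPM it stood at 2703 in EVs of animal E before surgery and at 376 to 1031 in the other 4 EV libraries of that group.

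Of the 4 miR-518 names, miR-518a-3p and miR-518b had the listing pattern of miR-512-5p, with 16 to 46 and 13 to 33 counts where listed in serum and 21 to 99 and 15 to 51 in EVs. miR-518d-3p was above 0 in serum of animals C (8 counts) and D (11) before and D (19) after surgery, and in all EV libraries (12 to 58 counts). miR-518e-3p, the only cluster name in every library, had 3, 30, 28, 26 and 3 counts in serum before and 48, 5 and 16 after surgery. In EVs it had 23, 14, 53, 25 and 63 counts before and 28, 39 and 49 after surgery, and all 4 groups overlapped.

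miR-519e-5p had the listing of miR-518d-3p, with 18 and 6 counts in serum of animals C and D before and 11 in animal D after surgery, and with 7 to 91 counts in EVs. miR-1283 ran otherwise than its neighbours in the cluster. It was listed in all 8 serum libraries (1 to 44 counts) but was 0 in EVs of animal C before and of animal D after surgery, and had 1 to 67 counts in the other 6. miR-521 had 13 and 6 counts in serum of A and E before surgery and 0 elsewhere, including every EV library.

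miR-520h was the clearest case of a name listed in EVs and not in serum. It was listed at 0 in all 8 serum libraries and had 25, 7, 57, 14 and 29 counts in EVs of animals A to E before surgery and 31, 0 and 68 in animals D to F after it. It was 1 of 37 names of 1105 (3.35%) that were 0 in all serum libraries and above 0 in at least 7 EV libraries, and the 9 names of the miR-548 family included 0 such names. Since no set of shared zeros held both serum and EVs, a difference in listing between serum and EVs and a difference between the sets cannot be told apart.

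Summed over members, the counts of each group spanned less than the library totals, except those of the cluster in serum. Family counts ran from 42 to 145 in serum (3.45-fold) and from 152 to 415 in EVs (2.73-fold), and cluster counts from 17 to 242 in serum (14.2-fold) and from 223 to 695 in EVs (3.12-fold). Library totals ran over 8.30-fold in serum and 8.66-fold in EVs. Serum of animal D before surgery, with the lowest serum total (76988), held 145 family and 234 cluster counts, whereas serum of animal C before surgery, with the highest (639207), held 82 and 169. In EVs the order was the other way, with 152 and 223 counts at the lowest total (65537, animal B before surgery) and 415 and 695 at the highest (567514, animal C before surgery). The median count of a listed miRNA name was 37 and 23 at the lowest and highest serum totals and 24 and 60 at the lowest and highest EV totals. It spanned 2.42-fold over serum and 2.5-fold over EVs. Of the serum libraries, the one with the lowest total also had the highest share for both groups of names (0.188% and 0.304%).

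**Figure D3:**
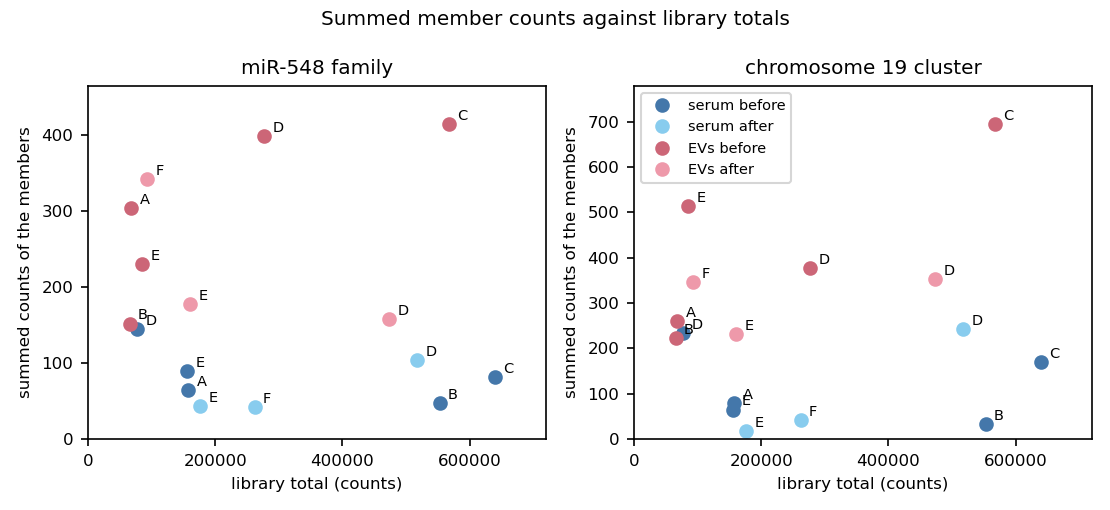
Summed counts of the members of each group (vertical axis) against the library total in counts (horizontal axis), 1 point per library, with colour for the group and letter for the animal. Serum of animal D, at the lowest serum total, holds 145 family and 234 cluster counts, and serum of animal C before surgery, at the highest total, holds 82 and 169.

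As a share of library totals the miR-548 family took 0.0616% ± 0.0737 in serum before (SD, n = 5), 0.0201% ± 0.00415 in serum after (n = 3), 0.233% ± 0.142 in EVs before (n = 5) and 0.171% ± 0.175 in EVs after surgery (n = 3). The chromosome 19 cluster took 0.0857% ± 0.123, 0.0240% ± 0.0199, 0.316% ± 0.197 and 0.197% ± 0.156 in the same order. Single libraries weighed on these means. With serum of animal D left out, the serum means before surgery were 0.0299% for the family and 0.0312% for the cluster, and without EVs of animal F after surgery the EV means after surgery were 0.0723% and 0.109%. Without serum of animal D after surgery the cluster's serum mean after surgery was 0.0126%. Among the single libraries the Wilson 95% interval was widest for the cluster in EVs of animal E before surgery, at 0.551% to 0.654% around 0.600%. Such intervals cover at most the counting error of independent counts.

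Dividing instead by totals scaled with TMM factors (trimmed mean of M values, which set libraries on a common scale through the bulk of the names) gave other shares, with smaller SDs in each group except serum after surgery, where the SD grew for both groups of names. The family then took 0.0537% ± 0.0232 in serum before, 0.0345% ± 0.00893 in serum after, 0.116% ± 0.0225 in EVs before and 0.107% ± 0.0706 in EVs after surgery, with n as above. On this scale all 5 EV libraries before surgery (0.0927% to 0.152%) lay above all 5 serum libraries before surgery (0.0191% to 0.0788%). On library totals these groups overlapped. The TMM factors of these libraries ran from 0.278 (serum of animal C) to 2.94 (EVs of animal A). How many of all names part in this way is not given here. In the edgeR fit of EVs against serum before surgery, 62.9% of all names tested lay above 0. The cluster took 0.0692% ± 0.0382 and 0.0470% ± 0.0483 in the 2 serum groups (before, then after surgery) and 0.160% ± 0.0540 and 0.136% ± 0.0446 in the EV groups, and its serum and EV ranges before surgery overlapped. No p is given for these sums, as the members were chosen with results known.

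**Figure D4:**
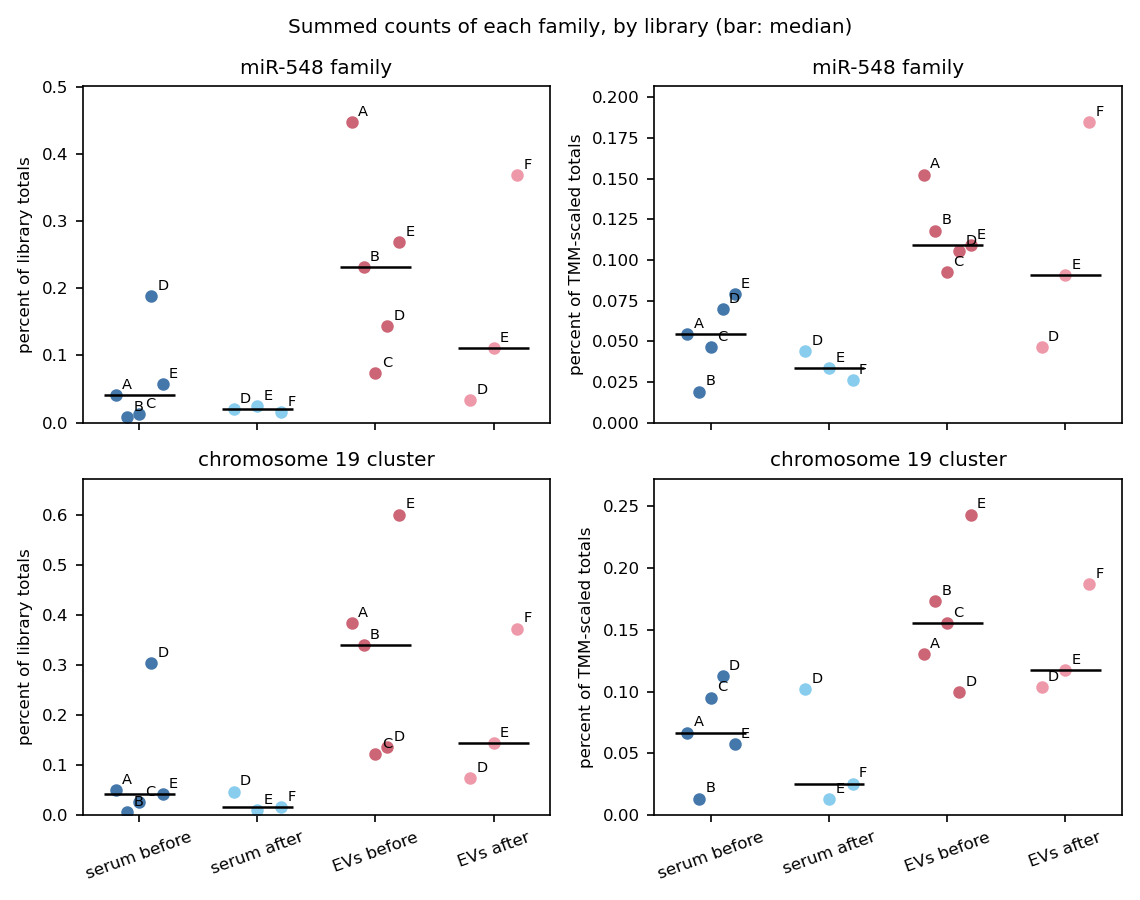
Summed counts of the miR-548 family (top) and the chromosome 19 cluster (bottom) as percent of library totals (left) and of TMM-scaled totals (right), 1 point per library with the animal's letter and a bar at the group median. EVs of animal A (family, 0.448%) and of animal E (cluster, 0.600%) before surgery are the highest on library totals.

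Whether EVs held more of these names than serum was asked first in pairs from both times. EVs and serum of the same animal and time made 8 pairs, before and after surgery together. Animals D and E each gave a pair at both times, so the pairs are not independent. The family was higher in EVs in 7 of 8 on library totals and in 8 of 8 on TMM-scaled totals, at TMM ratios of 1.06 to 7.05 (median 2.36). The same counts over all names are not given here. The cluster was higher in EVs in 7 of 8 pairs on either scale, at TMM ratios of 0.884 to 12.9 (median 3.09). The pair that went the other way was animal D before surgery in each case. Red blood cell names took 20.9% to 66.8% of counts in serum and 15.8% to 56.5% in EVs before surgery, and their part in these values was not tested. In a share, fewer vesicles with a given RNA and less of it per vesicle cannot be told apart.

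By edgeR's quasi-likelihood test before surgery, 0 of 10 tested members passed an adjusted p of 0.05, where 23 of 768 names were called (2.99%). All 4 tested family names and all 6 tested cluster names lay above 0, with median log2 fold changes of 1.52 and 1.29. Over all names tested 62.9% lay above 0, with a median of 0.35 that rose to 1.05 under library totals, where the members' medians were 2.09 and 2.02. The filter on low counts removed the other 8 members, miR-520h among them. As a name can pass that filter through EVs alone, the counts and medians over tested members are a description only. For miR-548ad-5p the fitted log2 fold change was 3.56 (SE 1.29), with an adjusted p of 0.214 by edgeR. It was the 1 tested member with an unadjusted p under 0.05 by edgeR's quasi-likelihood fit, where 107 of all names had one. miR-548ao-5p had 2.28 (SE 1.44, adjusted p = 0.564), miR-518d-3p 2.68 (SE 1.28, adjusted p = 0.368) and miR-519e-5p 2.29 (SE 1.33, adjusted p = 0.508). With 1 library left out miR-548ao-5p ran from 1.45 (without EVs of animal A) to 5.56 (without serum of animal D), and miR-519e-5p reached 3.77 without serum of animal C. These 4 were the members with most serum zeros among those tested, each listed at 0 in serum of animals A, B and E. The leading names were closer to 0, with 0.53 (SE 0.65) for miR-548f-3p and 1.32 (SE 0.88) for miR-512-5p.

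Calls of single members before surgery turned on the tool and on the filter. DESeq2 called miR-548ad-5p (adjusted p = 0.0258) among 7.03% of names. limma-voom called miR-548ad-5p, miR-548ao-5p, miR-518d-3p and miR-519e-5p among 19.5% of names. For miR-520h a call says no more than its listing, since serum was at 0 throughout and EVs alone carried the name past the filter. Such calls came by edgeR with no filter (adjusted p = 0.0320, 5.07% of names called), with all 16 libraries in 1 fit (adjusted p = 0.0451, 5.6% called), and when serum of animal A, B, C, D or E, or EVs of animal D, was left out, where 6.63%, 6.1%, 5.73%, 10.9%, 6.68% and 3.44% of names were called. Without serum of animal D, miR-548ad-5p and miR-548ao-5p were called as well (adjusted p = 0.0417 and 0.0232, edgeR). With the animal as a replicate block, 0 members and 0 of all 768 names were called.

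After surgery the question of EVs against serum gave 0 of 10 tested members past the threshold by edgeR, 0 with an unadjusted p under 0.05, and 0 of 747 names overall (0%, with 60 at an unadjusted p under 0.05). DESeq2 and limma-voom called 41 and 42 names but also 0 members. At an unadjusted p under 0.05 DESeq2 had 0 members, and limma-voom had 6 of the 10, where 34.1% of all names had one. The 3 tested family names lay above 0 (median 1.499), as did 6 of 7 cluster names (median 2.09), where all names tested had a median of 0.30 and 58.1% above 0. The smallest adjusted p of the members was 0.717 (edgeR), for miR-548f-3p (log2 fold change 1.499, SE 0.978) and miR-518a-3p (2.53, SE 1.73). miR-548y had 2.25 (SE 1.89) and miR-519e-5p 2.31 (SE 1.73), both with an adjusted p of 0.732 by edgeR. Without EVs of animal F, miR-548f-3p had 0.23 and miR-548y 1.38. miR-1283 was the exception, at −1.04 (SE 1.84), and under library totals all 7 cluster names lay above 0. Without serum of animal D after surgery, miR-512-5p, miR-518a-3p, miR-518b, miR-518d-3p, miR-519e-5p and miR-548y were called, but so were 29.8% of all names tested. The serum libraries left in that fit, of animals E and F, belong to the set with 524 shared zeros, and each of the 6 names is at 0 in both, so no fold is given and the calls say no more than the listing.

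**Figure D5:**
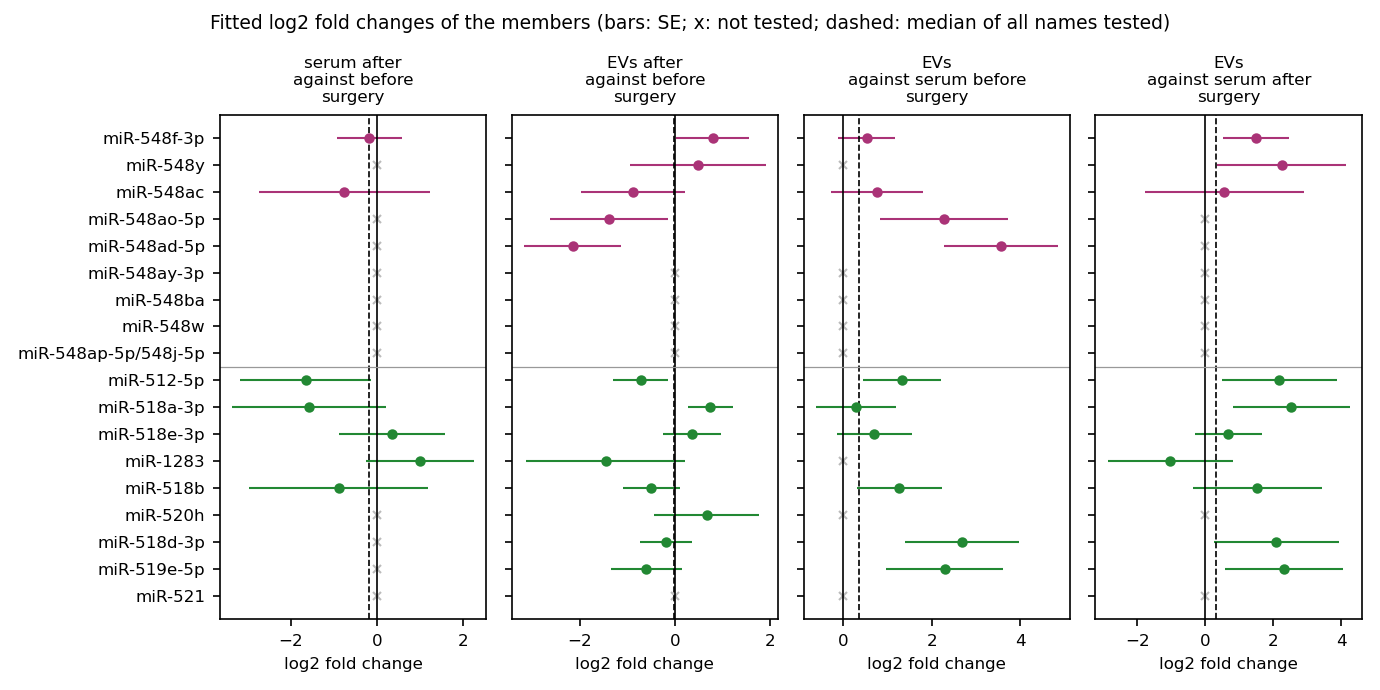
Fitted log2 fold changes with SE (edgeR) of the members in the 4 comparisons of groups, with crosses for members that did not pass the filter on low counts and a dashed line at the median of all names tested. Before surgery all 10 tested members lie above 0 for EVs against serum, and 0 members pass the threshold in any panel.

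For surgery in serum, the question was whether the names changed within a week of the operation. Of the 7 members tested, 0 were called by edgeR, DESeq2 or limma-voom and 0 had an unadjusted p under 0.05 by any of them, with 0 of 696 names called in all (0%, edgeR, with 54 at an unadjusted p under 0.05). The 2 family names lay below 0, miR-548f-3p at −0.18 (SE 0.76) and miR-548ac at −0.76 (SE 1.98). In the cluster, miR-512-5p had −1.66 (SE 1.52) and miR-518a-3p −1.58 (SE 1.79). The adjusted p was 0.968 for each of these 4 names (edgeR), while miR-1283 (0.995, SE 1.26) and miR-518e-3p (0.35, SE 1.23) lay above 0. After surgery miR-512-5p, miR-518a-3p and miR-548ac were listed in serum of animal D alone, so their values rest on that library, and without it no fold is given. With 1 of the other libraries after surgery left out (animal F), they were −1.08, −0.99 and −0.17. With 1 library left out miR-548f-3p ran from −0.89 (without animal E after surgery) to 0.27 (without animal D after surgery). Under library totals all 5 tested cluster names lay below 0, and the median over all names tested went from −0.20 to −0.88. In the same animals, summed family counts went from 145 to 104 in animal D and from 89 to 43 in animal E, and cluster counts from 234 to 242 and from 65 to 17. On TMM-scaled totals both were lower after surgery in both animals, the family from 0.0699% to 0.0440% and from 0.0788% to 0.0334%, and the cluster from 0.113% to 0.102% and from 0.0575% to 0.0132%. These are single pairs with no test. In both animals the lower values went with a change of zero set. Serum of animal D moved from the set of animals C and D to standing alone. Serum of animal E moved from the set of animals A and E to the set with 524 shared zeros.

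In EVs after against before surgery, 13 members were tested and 0 called by edgeR, DESeq2 or limma-voom, with 0 of 856 names called in all (0%, edgeR). At an unadjusted p under 0.05 edgeR had 15 names and 0 members, and DESeq2 and limma-voom 1 member each. The 5 family names had a median of −0.88 with 2 above 0, and the 8 cluster names a median of −0.34 with 3 above 0, against −0.017 for all names, which went to −0.55 under library totals with 1 and 2 members above 0. miR-548ad-5p had the smallest p of the members (log2 fold change −2.16, SE 1.03, unadjusted p = 0.0609 and adjusted p = 0.999 by edgeR). miR-548ao-5p had −1.39 (SE 1.24), miR-518a-3p 0.75 (SE 0.48) and miR-512-5p −0.72 (SE 0.59), where each adjusted p was 0.999 (edgeR). With 1 library left out miR-548ao-5p ran from −2.73 (without animal F after surgery) to −0.57 (without animal A before surgery). miR-518a-3p was 0.27 without animal F after surgery, and miR-512-5p was −0.34 without animal E before surgery. Family counts in EVs went from 399 to 158 in animal D and from 230 to 178 in animal E, and cluster counts from 377 to 352 and from 513 to 231. On TMM-scaled totals the family went from 0.106% to 0.0466% and from 0.109% to 0.0905%, and the cluster from 0.0997% to 0.104% and from 0.243% to 0.117%, so the direction of the cluster in animal D turned with the scaling.

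The change of the ratio of EVs to serum with surgery was tested as an interaction over all 16 libraries. Of 15 tested members 0 were called by edgeR, DESeq2 or limma-voom, 0 had an unadjusted p under 0.05 by any of them, and 0 of 1018 names were called by edgeR (0%, with 85 at an unadjusted p under 0.05) and 3 by DESeq2. The 2 family names with the smallest p were miR-548w (adjusted p = 0.671) and miR-548ao-5p (adjusted p = 0.761, edgeR). Both were at 0 in all 3 serum libraries after surgery, so no fold is given. The 2 cluster names with the smallest p were miR-518a-3p (2.22, SE 1.79, adjusted p = 0.998) and miR-1283 (−2.43, SE 2.23, adjusted p = 0.9997, edgeR). In serum after surgery miR-518a-3p was listed in animal D alone. miR-1283 was −6.95 without EVs of animal E after surgery, and had 0 and 1 counts in the 2 EV libraries then left in that group.

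Names related to the members were also looked up. Of 6 names of the miR-17 kind, 4 were listed and tested in every comparison (miR-17-5p, miR-20a-5p, miR-93-5p and miR-106b-5p), and 0 were called in any. Their seed is related to those of many cluster products, but no seed of a listed member was compared by sequence. miR-93-5p, a member of a conserved cluster that also yields miR-25 and miR-106b, had 350 to 7214 counts in serum and 196 to 4183 in EVs, above every count of the 18 members except in EVs, where its lowest value of 196 lay below 3 of their values. Of 11 names of the miR-302 and miR-371 to miR-373 kind, which mark early embryonic cells, 2 were listed. miR-373-3p, whose hairpin neighbours the cluster on the human chromosome, was listed at 0 in all 8 serum libraries and had 50, 5, 52, 47 and 13 counts in EVs before and 56, 9 and 7 after surgery. Before surgery it was among the names called as higher in EVs (adjusted p = 0.0138, edgeR), a call against serum at 0 throughout that says no more than the listing. miR-302d-3p had 2 to 34 counts in serum of animals A, C, D and E before surgery, 0 in the other 4 serum libraries and 12 to 54 counts in EVs. Of miR-570-3p, miR-570-5p and miR-603, relatives of miR-548 by their transposon origin, 0 were listed.

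The names whose log2 CPM (TMM-scaled, prior count of 2) followed the leading member of each group most closely over the 16 libraries were found among names above 0 in all libraries. For miR-548f-3p these were miR-626 (Pearson r = 0.86), miR-1276 (0.78), miR-576-3p (0.76), miR-29c-5p (0.75) and miR-4290 (0.75), where the median over 374 names was −0.073. For miR-512-5p they were miR-6793-5p (r = 0.75), miR-5692a (0.72), miR-889-5p (0.72), miR-598-3p (0.71) and miR-6767-5p (0.70), with a median of −0.031 over 375 names. These points share libraries, and serum and EV libraries differ in depth and scale, so the values describe likeness within this table only.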

How the data were processed

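RNA of serum and of serum EVs was sequenced in 16 libraries of adolescent sheep, and the deposited table gives whole-number counts per miRNA or piRNA name as the authors made them. The submitters' processing notes name bcl2fastq 2.20.0.422 and, as build, human hg19. Not given in the sources used here are the aligner, the counter, the annotation and whether molecular identifiers were used. Names of 1 family with near-identical sequences can share reads, so single members are uncertain, and no name was compared with sheep sequence.

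Groups and animals came from the sample titles, which say no more on how samples relate, so p-values measure the spread between these samples. Comparisons were fitted over all names by the quasi-likelihood test of edgeR 4.0.16 under R 4.3.3, after filterByExpr (minimum count 10) and TMM scaling. Benjamini-Hochberg adjustment was used with a threshold of 0.05. The fit was first checked on simulated data. Those counts were independent between libraries, with no sets of shared zeros and no repeated animals, so the check does not cover these features. DESeq2 1.42.0, limma-voom (limma 3.58.1), other scalings and filters, left-out libraries and the animal letter as a block were alternatives. The letters, read as animals, pair the samples, but the main fits carry no block. Deviations from group means correlated at 0.115 to 0.418 in the 4 same-letter pairs within serum or within EVs, and at −0.501 to 0.694 in the 12 pairs of serum with EVs. The Wilson 95% intervals take counts as independent. PCR copies are not independent molecules, so with copies among the counts the intervals are too narrow even for counting error.

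The members and lists were chosen with earlier results of these data known. The rule for named members took those above 0 in all libraries, the 8 of highest mean share in each group of names, those called, and the 2 of smallest p in each comparison. miR-521 and the shared row of miR-548ap-5p and miR-548j-5p fall outside it and were named for completeness.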

Additional observations from a re-analysis of the deposited data

Results flagged for a closer look

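In 36 combinations of a name (or summed group) with a group of 5 libraries, 15 had 1 library whose gap to the nearest other exceeded 0.71 of the range. That cutoff is passed by about 1 in 20 sets of independent, normally spread values. Shares with many zeros, sums of the same names and shared libraries do not meet this, so 15 of 36 is not read as an excess. Serum of animal D before surgery, the serum library with the lowest total, stood apart from the other 4 in 10 of the 15. Its share was 0.188% for the miR-548 family (others 0.0085% to 0.0571%) and 0.304% for the chromosome 19 cluster (others 0.00597% to 0.0506%). On TMM-scaled totals the same library had 0.0699% and 0.113%, and for the family animal E was then higher, at 0.0788%.

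Single names in that library stood at 442 CPM for miR-1283, 1195 for miR-512-5p, 143 for miR-518d-3p, 338 for miR-518e-3p, 143 for miR-548ad-5p, 338 for miR-548ao-5p, 364 for miR-548ay-3p and 468 for miR-548y. On TMM-scaled log2 CPM, that library and serum of animal C before surgery had 7.44 and 6.93 for miR-1283, and 8.82 and 8.49 for miR-512-5p. They had 5.96 and 5.76 for miR-518d-3p, 5.96 and 5.43 for miR-548ad-5p, and 7.51 and 6.86 for miR-548y. For miR-518e-3p animal C was higher (7.38 against 7.07). For miR-548ao-5p (7.07) and miR-548ay-3p (7.17) the other 4 reached at most 4.36 and 4.70. The shared row of miR-548ap-5p and miR-548j-5p had 47.0 CPM in serum of animal B and 0 in the other 4 serum libraries before surgery.

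Among EVs before surgery, animal E was highest for miR-512-5p (2703 CPM, others 376 to 1031) and miR-519e-5p (468 CPM, others 103 to 163). Animal C was lowest for miR-518a-3p (174 CPM, others 311 to 339). Animal A was highest for miR-548ba (412 CPM, others 0 to 23.4).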

How the results depend on the processing

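Counts of called members stayed at 0 for surgery in serum, surgery in EVs and the interaction under every alternative run. For EVs against serum before surgery, family names called were 1 by DESeq2, 2 by limma-voom and 0 to 2 with 1 library left out. Cluster names called were 2 by limma-voom, 1 with no filter, 1 with all 16 libraries in 1 fit and 0 to 1 with 1 library left out. After surgery the left-out range was 0 to 1 for the family and 0 to 5 for the cluster, and the high values came without serum of animal D. With the animal as a replicate block 0 members were called in all 5 comparisons, and the 23 names called before surgery fell to 0. The block changed no other call.

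In serum after surgery the family's share was 0.0337% with red blood cell names left out of the total, 0.00783% without its leading member and 0.0345% on TMM-scaled totals, and the cluster's share was 0.0470% on the last. With libraries thinned to 65537 counts, or with at least 10 counts asked for, 0 cluster names were present in every library. The log2 fold change of miR-548f-3p in serum with surgery was 1.71 when a term for the zero sets entered the fit, a setting chosen after seeing the data, and ran from −0.89 to 0.27 with 1 library left out. The fitted interaction of miR-548ao-5p turned to −0.73 by limma-voom and −1.23 with that term, but serum after surgery is at 0 for this name, so neither value measures a change. The term could not be fitted for EVs against serum. For these reversals the cause was not tested. Low counts limit all single names, as most values are under 100.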
